A study of Mus musculus with 8 samples.

Results

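Small structural RNAs and transfer RNAs (tRNAs) were followed in mouse embryos at the 2-cell stage through the repeat names under which copies of these RNA genes are annotated across the genome. The names were chosen by their spelling: tRNA names, the Y RNAs HY1 to HY5, the U RNAs, 7SK, 7SL, 4.5S, 5S, BC200 and the 2 long ribosomal RNAs (LSU-rRNA and SSU-rRNA). The rule itself uses no measured value, although it was set with earlier results of these data known. The rule found 82 of the 1554 repeat names of the deposited repeat table, and all 82 stand in the class that table calls Other. There were 58 tRNA names, 2 further tRNA names with the suffix (m), which is not explained in the sources used here, 12 U RNA names, 4 Y RNA names, 2 rRNA names and 1 name each for 7SK, 7SL, 4.5S and 5S, while 0 names matched BC200.

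The tested embryos were 4 pools that carried a knockout of Dux (Dux KO), and they were set against 4 wild-type pools (WT). All 8 pools shared the C57BL/6 background, came from timed matings and contained 12 to 18 embryos each. The labels tell neither how the Dux allele was made nor whether pools of a group had separate parents, and p-values below measure the spread among pools, which may be technical. Dux encodes a homeobox transcription factor of the early embryo, and the comparison asks what its loss does to transcripts at this stage.

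Most of these RNAs are made by RNA polymerase III, which transcribes short genes that often lie in many copies: 5S rRNA, tRNAs, Y RNAs, 7SK, 7SL and U6. The remaining U RNAs are mostly made by RNA polymerase II, and the long rRNAs by RNA polymerase I or, in mitochondria, by the mitochondrial polymerase. Their mature forms carry out splicing, translation, protein export and ribosome maturation, and as a rule they have no poly(A) tail. The labels name polyA RNA as the molecule that was made into cDNA. The values below are therefore what entered such libraries, and they do not give the amount of each small RNA in an embryo. A name also pools reads from every annotated copy, degenerate copies and copies inside other transcripts included, and read positions were not used here.

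Levels are given in FPM, the authors' deposited counts of fragments after scaling for library size. Between 2239838 and 3008546 repeat reads per pool were recovered from these values, and 1 read was worth 0.327 to 0.427 FPM. A count of 0 allows up to 3 reads, which is 0.981 to 1.28 FPM for a pool, and this limit covers counting error alone. No 2 pools of a group agreed within sampling noise: a chi-square over their recovered repeat reads came to 15.6 to 126 for each degree of freedom. All 14 markers of oocytes and 2-cell embryos were in the gene table, with summed levels of 3568 to 4228 FPKM in Dux KO pools and 5172 to 6328 FPKM in WT pools. The list mixes genes of the 2-cell stage, Zscan4a, Zscan4c, Zscan4d, Zscan4f, Zfp352, Usp17lb and Tcstv3 among them, with oocyte genes such as Zp3 and Zar1. Its sum therefore does not measure how much embryo material a pool held, and why it differed between groups was not tested. Of other cells that a pool could carry, 4 of 12 cumulus and granulosa markers summed to 24.8 to 40.1 FPKM in Dux KO pools and 24.5 to 34.1 FPKM in WT pools. The 4 of 8 oviduct markers found, Ovgp1, Epcam, Krt18 and Krt19, summed to 98.3 to 142 FPKM in Dux KO pools and 132 to 151 FPKM in WT pools. Of the blood markers 1 of 8 was found, Cd68, at 1.77 to 4.88 FPKM in Dux KO pools and 1.33 to 5.61 FPKM in WT pools, and 0 of 7 sperm markers were found. The part of other cells in the results below was not tested. In pools, fewer cells of a type and less RNA per cell cannot be told apart.

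The 82 names differed in level by several orders of magnitude. LSU-rRNA_Hsa and SSU-rRNA_Hsa together took 82.4% of all FPM of the 82 names, the 2 names with the suffix (m) took 11.9%, and the 58 other tRNA names 3.37%. The U RNAs took 1.04% and the Y RNAs 0.0126%. The 2 rRNA names and the 2 names with the suffix (m) had means of 1667 to 16645 FPM, the next name had 864 FPM, 17 names reached 10 FPM and 32 reached 1 FPM, the level from which a name was tested. A further 37 names had reads but stayed under a mean of 1 FPM, and 13 names were listed at 0 in all 8 pools: HY5 and 12 tRNA names. All 82 names together held 2.58, 5.85, 3.43 and 3.87% of the repeat reads in Dux KO pools 1 to 4, against 2.30, 2.65, 4.15 and 3.65% in WT pools 1 to 4. The groups overlapped, and Dux KO pool 2 was the highest through its rRNA reads.

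**Figure D1:**
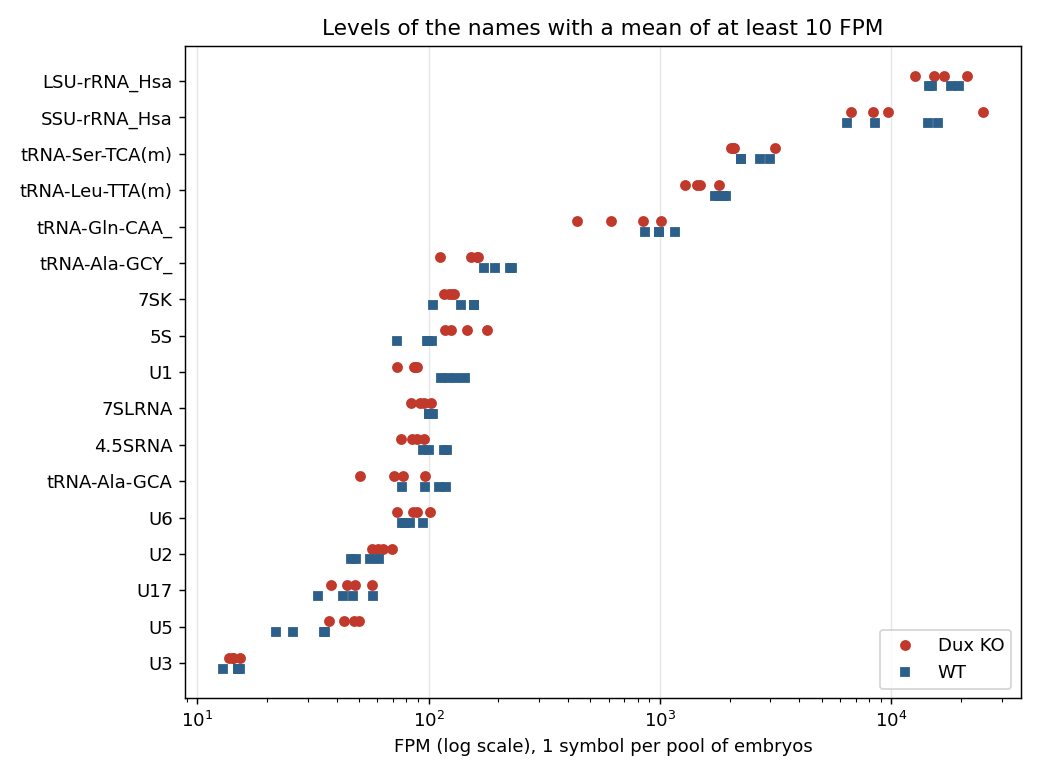
Level of each of the 17 names with a mean of at least 10 FPM (rows) in FPM on a log scale, with 1 circle per Dux KO pool and 1 square per WT pool. Dux KO and WT symbols separate for 5S and U5, higher in Dux KO, and for U1 and tRNA-Ala-GCY_, lower in Dux KO, while SSU-rRNA_Hsa spans 6717 to 24746 FPM within the Dux KO pools alone.

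Against this spread, 4 of the 32 tested names changed, namely HY1 and U1, which fell, and 5S and U8, which rose. The test was limma on log2(FPM + 1), fitted on all 1267 repeat names with a mean of at least 1 FPM, with a Benjamini-Hochberg adjusted p under 0.05 as the threshold. In that fit 12.2% of all repeat names were called, 4.66% higher and 7.58% lower in Dux KO, so that 4 of 32 (12.5%) is close to the background. The other 28 names did not pass. At an unadjusted p under 0.05 there were 3 names higher and 10 lower in Dux KO. All repeat names were not counted at that threshold, so no excess can be read from these numbers. The values of both groups did not overlap for 9 of the 32 names (28.1%), beside 18.4% of all repeat names. The median log2 fold change, Dux KO over WT, was -0.15 over the 32 names and -0.02 over all repeat names, and 22 of the 32 were below 0, beside 53.0% of all repeat names.

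Direction depended on how libraries were scaled. The summed FPM of all repeat names in Dux KO pools averaged 0.806 of that in WT pools. As an alternative, each library was scaled to the same total of FPM. The median over all repeat names then moved to 0.27 and that over the tested small RNA names to 0.16. Of these tested names 13 of 33 were below 0, beside 24.7% of all repeat names. Under that scaling 310 repeat names were called higher and 37 lower in Dux KO, against 59 higher and 96 lower with the deposited scaling. A log2 fold change below is therefore relative to the deposited scaling, unless stated otherwise.

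**Figure D2:**
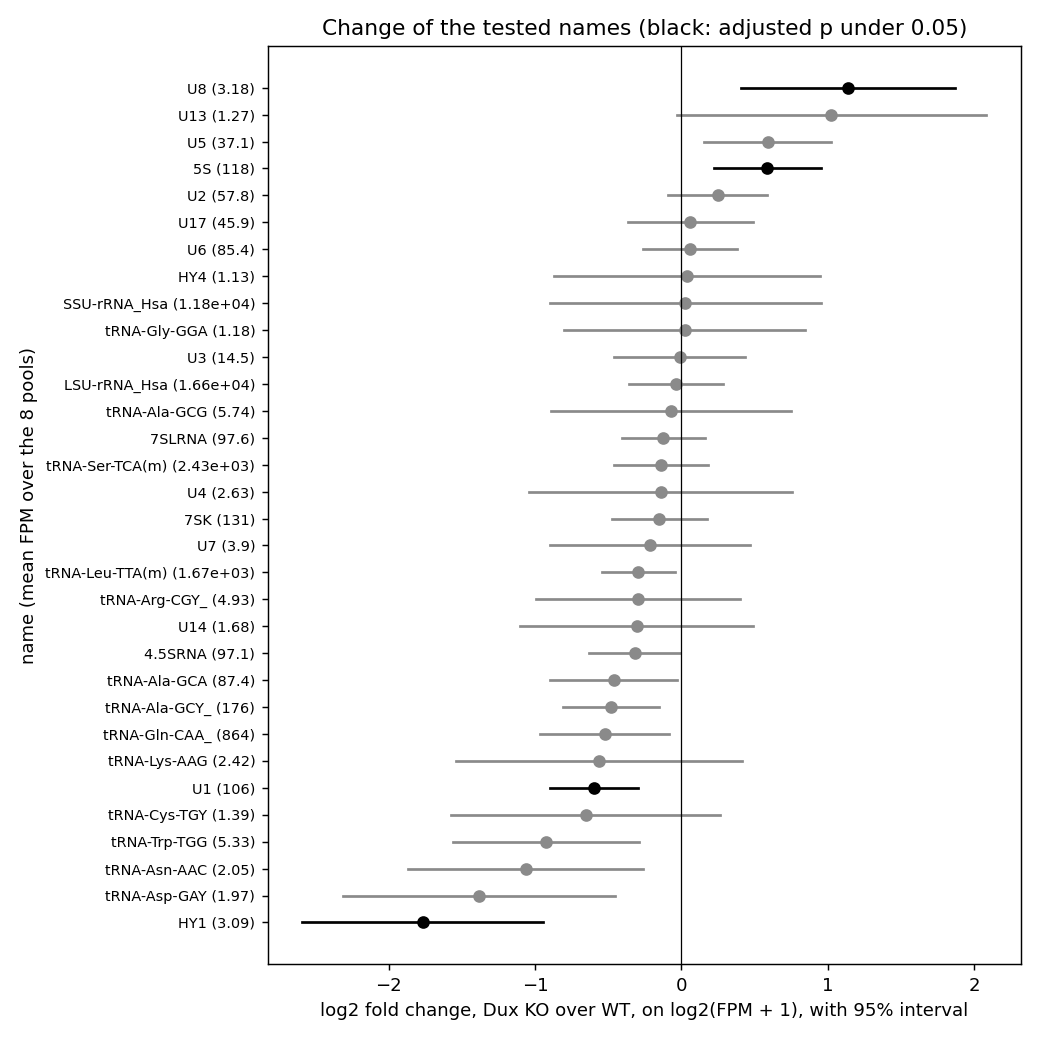
Log2 fold change, Dux KO over WT, on the log2(FPM + 1) scale for each of the 32 tested names (rows, with the mean FPM over the 8 pools in brackets), with the 95% interval as a line. Black marks the 4 names with an adjusted p under 0.05, of which U8 and 5S lie to the right of 0 and U1 and HY1 to the left, and 12 of the 13 tRNA names lie to the left.

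The largest log2 fold change of the 32 names in either direction was that of HY1, the name for Y1 RNA. Y RNAs are short RNA polymerase III transcripts that bind the Ro60 protein and the La protein and are known from work on RNA quality control and DNA replication. HY1 had 0.713, 0, 1.39 and 1.49 FPM in Dux KO pools 1 to 4, against 5.02, 7.41, 5.55 and 3.13 FPM in WT pools 1 to 4. Every Dux KO pool lay below every WT pool, and Dux KO pool 2 held no read. The log2 fold change was -1.77 (SE 0.384, 95% interval -2.59 to -0.94, limma adjusted p = 0.0118). HY1 remained low in reads, with 10 reads over the 4 Dux KO pools (exact Poisson 95% interval 4.80 to 18.4) and 53 over the 4 WT pools (39.7 to 69.3). These intervals cover counting error of the summed reads alone, and neither the spread among pools nor library scaling. Leaving out Dux KO pools 1 and 2 together ended the call, at a log2 fold change of -1.32 and adjusted p = 0.127, and adjusted p ranged from 0.0036 to 0.127 over 18 alternatives.

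The other Y RNA names were near the limit of detection. HY4 had 1.07, 0.654, 1.39 and 1.12 FPM in Dux KO pools 1 to 4, against 1.25, 0, 0.854 and 2.74 FPM in WT pools 1 to 4, which is 12 reads in each group, and the groups overlapped. Its log2 fold change was 0.04 (95% interval -0.87 to 0.95, limma adjusted p = 0.963). HY3 had 0 reads in Dux KO pools and 3 reads in WT pools, and HY5 had 0 in both. Summed over the 4 names, Y RNA averaged 1.96 ± 0.971 FPM in Dux KO pools and 6.78 ± 0.687 FPM in WT pools (SD, n = 4 each), and HY1 made up most of that sum in WT.

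**Figure D3:**
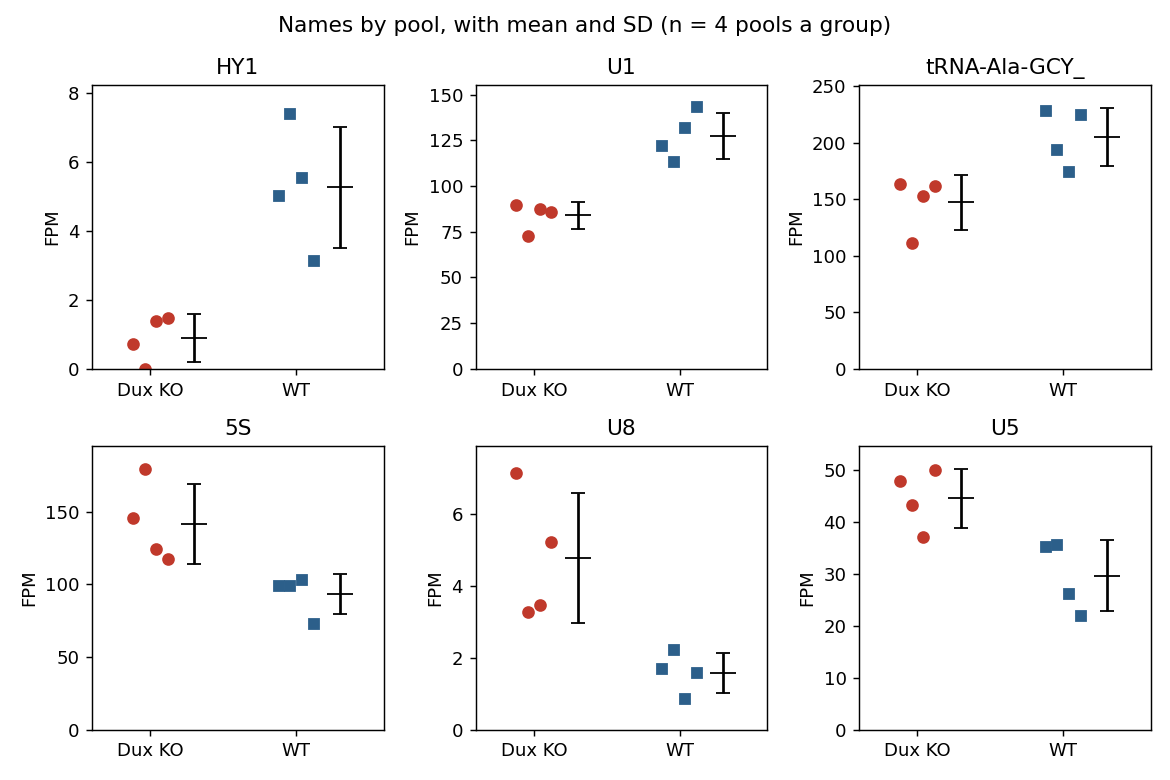
FPM of 6 names by pool, as circles for Dux KO and squares for WT, with the mean and SD of the 4 pools of a group beside them, on axes that start at 0. The symbols of both groups are apart in all 6 panels: HY1, U1 and tRNA-Ala-GCY_ lie lower in Dux KO, and 5S, U8 and U5 lie higher.

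Rny1, the gene of Y1 RNA, is shown with its neighbour Rny3, the gene of Y3 RNA, the name with almost no reads. The tested genes included none with an Rny symbol. Whether the reads of HY1 came from Rny1 or from other copies was not tested. Both sequences are from the GENCODE M21 annotation of GRCm38 and run 5′ to 3′. Rny1 lies at chr6:47788069-47788180 on the minus strand and Rny3 at chr6:47781624-47781725 on the plus strand, with 6343 bases between them. Capitals mark a stretch near the 5′ end that both share and the T run at the end, the usual stop signal of RNA polymerase III:
Rny1: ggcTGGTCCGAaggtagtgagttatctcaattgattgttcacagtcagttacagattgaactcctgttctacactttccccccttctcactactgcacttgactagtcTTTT
Rny3: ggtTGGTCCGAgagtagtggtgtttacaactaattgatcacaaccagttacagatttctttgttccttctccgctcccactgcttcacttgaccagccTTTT
The pair aligned with 81 identical columns of 112, or 72.3%. How the authors treated reads with several positions is not given in the sources used here.

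Among the spliceosomal U RNAs, U1 fell. U1 small nuclear RNA recognises the 5′ splice site of pre-mRNA by pairing and also shields transcripts from early polyadenylation. U1 had 89.5, 72.9, 87.2 and 86.1 FPM in Dux KO pools 1 to 4, against 122, 113, 132 and 143 FPM in WT pools 1 to 4. The groups did not overlap, and the 3 Dux KO pools other than pool 2 lay within a few FPM of each other. The mean was 83.9 ± 7.47 FPM in Dux KO pools and 127 ± 12.8 FPM in WT pools (SD, n = 4 each), and the log2 fold change was -0.60 (SE 0.14, 95% interval -0.90 to -0.30, limma adjusted p = 0.0155). The authors' deposited table gives a log2 fold change of -0.603 with adjusted p = 0.000707. The call was lost at -0.29 with libraries scaled to equal totals (adjusted p = 0.158), narrowly without Dux KO pool 2 (adjusted p = 0.051) or WT pool 4 (0.0506), and without Dux KO pools 1 and 2 (0.144) or 3 and 4 (0.052) together. Adjusted p ranged from 0.000707 to 0.158 over 20 alternatives, and the value stayed below 0 in each.

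Mouse U1 is made from several near-identical genes, of which a1-type and b1-type copies are shown because the 1 name U1 does not separate them. Rnu1a1 lies at chr11:87422867-87423030 on the plus strand and Rnu1b1 at chr3:96359953-96360117 on the minus strand of GRCm38 (GENCODE M21). Capitals mark the stretch that pairs with the 5′ splice site and the site that binds the Sm proteins:
Rnu1a1: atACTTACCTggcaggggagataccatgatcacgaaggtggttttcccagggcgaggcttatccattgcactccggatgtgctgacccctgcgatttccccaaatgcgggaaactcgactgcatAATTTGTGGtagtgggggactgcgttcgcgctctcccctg
Rnu1b1: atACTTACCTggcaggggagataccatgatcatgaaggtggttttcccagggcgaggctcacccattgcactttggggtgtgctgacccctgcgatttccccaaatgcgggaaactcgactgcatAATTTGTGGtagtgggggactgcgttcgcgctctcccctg
The 2 genes differ in 7 of 165 aligned columns (95.8% identical), and both capital stretches are the same.

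U5, whose loop holds the exon ends together during splicing, had 47.8, 43.2, 37.2 and 49.9 FPM in Dux KO pools 1 to 4, against 35.1, 35.6, 26.1 and 21.9 FPM in WT pools 1 to 4. Every Dux KO pool lay above every WT pool, the opposite order to U1. Its log2 fold change of 0.59 (95% interval 0.15 to 1.02) missed the threshold, with limma adjusted p = 0.0748. Other tools placed U5 past it: adjusted p was 0.0328 by edgeR and 0.0123 by DESeq2 on recovered reads, and 0.0443 in the authors' deposited table, within a range of 0.00374 to 0.336 over 20 alternatives.

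Neither the remaining spliceosomal names nor U7 passed. U2, which pairs with the branch site, had 60.6, 63.8, 57.0 and 69.7 FPM in Dux KO pools 1 to 4, against 56.0, 60.8, 46.1 and 48.5 FPM in WT pools 1 to 4, with 0.25 as log2 fold change (95% interval -0.09 to 0.59, limma adjusted p = 0.341). With equal totals U2 was called, at 0.55 and adjusted p = 0.0184, within a range of 0.0184 to 0.614 over 20 alternatives. U6, the catalytic RNA of the spliceosome, ran from 73.3 to 101 FPM in Dux KO pools and from 77.0 to 94.1 FPM in WT pools, with a log2 fold change of 0.06 (95% interval -0.26 to 0.38). U4, which keeps U6 inactive until splicing starts, ran from 1.78 to 3.27 FPM in Dux KO pools and from 0.837 to 5.47 FPM in WT pools, with a log2 fold change of -0.14 (95% interval -1.04 to 0.76). U7, which guides the cleavage of histone mRNA ends, ran from 2.24 to 5.21 FPM in Dux KO pools and from 2.96 to 5.55 FPM in WT pools, with a log2 fold change of -0.21 (95% interval -0.90 to 0.47). Groups overlapped for these 4 names.

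The nucleolar members of the U RNAs process and modify rRNA, and among them U8 rose. U8, which is needed for the maturation of the large-subunit rRNAs in frog oocytes, had 7.13, 3.27, 3.47 and 5.22 FPM in Dux KO pools 1 to 4, against 1.67, 2.22, 0.854 and 1.56 FPM in WT pools 1 to 4. All Dux KO pools lay above all WT pools. The log2 fold change was 1.14 (SE 0.341, 95% interval 0.41 to 1.87, limma adjusted p = 0.0425). It rests on 54 reads in Dux KO pools (exact Poisson 95% interval 40.6 to 70.5) and 16 in WT pools (9.15 to 26.0), intervals that cover counting error alone. The call ended without any 1 of the 8 pools, with adjusted p from 0.053 without WT pool 2 to 0.123 without Dux KO pool 1, and over 19 alternatives adjusted p ranged from 0.00754 to 0.241. The authors' deposited table gives 1.58 with adjusted p = 0.0532. The U8 gene, Snord118, lies at chr11:69073427-69073561 on the plus strand of GRCm38 (GENCODE M21), shown here with its C box and D box in capitals:
Snord118: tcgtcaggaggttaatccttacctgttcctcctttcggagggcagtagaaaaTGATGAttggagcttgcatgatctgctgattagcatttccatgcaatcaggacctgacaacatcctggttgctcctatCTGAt

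The other nucleolar names, which act on pre-rRNA as well, did not pass. U13 had 3.92, 2.62, 2.08 and 0 FPM in Dux KO pools 1 to 4, against 0.837, 0.741, 0 and 0 FPM in WT pools 1 to 4, and the groups overlapped through Dux KO pool 4. Its log2 fold change was 1.03 (95% interval -0.03 to 2.08, limma adjusted p = 0.193) on 25 reads in Dux KO pools and 4 in WT pools, and without Dux KO pool 4 it was 1.51 with adjusted p = 0.0393, within a range of 0.0393 to 0.398 over 14 alternatives. The separate name U13_ held 2 reads in Dux KO pools and 6 in WT pools and was under the filter. U3 and U17, which take part in the early cleavages of pre-rRNA, had log2 fold changes of -0.01 (95% interval -0.46 to 0.44) and 0.06 (95% interval -0.36 to 0.49). U3 ran from 13.8 to 15.4 FPM in Dux KO pools and from 13.0 to 15.2 FPM in WT pools. U17 ran from 37.8 to 56.6 FPM in Dux KO pools and from 33.3 to 57.3 FPM in WT pools. U14 ran from 1.07 to 1.49 FPM in Dux KO pools and from 0.741 to 3.76 FPM in WT pools, with a log2 fold change of -0.31 (95% interval -1.10 to 0.49). Over the 11 tested U RNA names 5 were below 0 and the median log2 fold change was 0.06, and their summed level averaged 354 ± 24.4 FPM in Dux KO pools and 365 ± 7.75 FPM in WT pools (SD, n = 4 each).

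The 5S name rose. 5S rRNA is the small RNA of the large ribosomal subunit and the classical target of the RNA polymerase III factor TFIIIA, which is abundant in frog oocytes. It had 146, 179, 124 and 117 FPM in Dux KO pools 1 to 4, against 98.7, 99.3, 103 and 72.7 FPM in WT pools 1 to 4. The lowest Dux KO pool lay above the highest WT pool, and Dux KO pool 2 and WT pool 4 stood at the outer ends. The mean was 142 ± 27.8 FPM in Dux KO pools and 93.5 ± 14.04 FPM in WT pools (SD, n = 4 each), and the log2 fold change was 0.59 (SE 0.169, 95% interval 0.23 to 0.95, limma adjusted p = 0.0384). The authors' deposited table gives 0.601 with adjusted p = 0.00975. The call ended without Dux KO pool 1 (adjusted p = 0.0881), 2 (0.118) or 3 (0.0533), without WT pool 1 (0.0589), 2 (0.053) or 4 (0.102), and without Dux KO pools 1 and 2 together (0.373), while over 20 alternatives adjusted p ranged from 0.00123 to 0.373 and the value stayed above 0. 

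GENCODE M21 annotates 180 genes of 5S type with 149 distinct sequences, all of which the 1 repeat name may pool.

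Of the other short RNA polymerase III transcripts, none changed under the test. 7SK, the RNA that holds the elongation kinase P-TEFb inactive, had 123, 127, 129 and 116 FPM in Dux KO pools 1 to 4, against 156, 157, 138 and 104 FPM in WT pools 1 to 4. The Dux KO pools lay inside the range of the WT pools, and the log2 fold change was -0.15 (95% interval -0.47 to 0.17, limma adjusted p = 0.58). 7SLRNA, the RNA of the signal recognition particle, had 84.1, 91.9, 95.9 and 102 FPM in Dux KO pools 1 to 4, against 100.4, 102, 99.9 and 104 FPM in WT pools 1 to 4. Its log2 fold change was -0.12 (95% interval -0.41 to 0.16, limma adjusted p = 0.601). 4.5SRNA, a small RNA found in rodents, had 84.5, 88.9, 76.1 and 95.4 FPM in Dux KO pools 1 to 4, against 120.0, 117, 94.4 and 100.4 FPM in WT pools 1 to 4. Its groups overlapped by 1 pair of pools, and its log2 fold change was -0.32 (95% interval -0.63 to -0.01, limma adjusted p = 0.17). With equal totals 7SK stood at 0.16 and 7SLRNA at 0.18, so that the direction of both rests on the scaling.

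Far fewer reads were counted for the gene Rn7sk than for the name 7SK. Rn7sk, the functional gene, held 19, 31, 36 and 21 reads in Dux KO pools 1 to 4, against 25, 31, 43 and 23 reads in WT pools 1 to 4. In the same pools the name 7SK held 344, 387, 371 and 312 reads in Dux KO and 374, 423, 323 and 267 reads in WT. The gene's reads were 5.52 to 13.3% of the name's in each pool. Which copies gave the other reads was not tested.

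The 2 long rRNA names held most reads. LSU-rRNA_Hsa, the large-subunit rRNA, had 12676, 21295, 15198 and 16936 FPM in Dux KO pools 1 to 4, against 14551, 14937, 19510.1 and 18058 FPM in WT pools 1 to 4. SSU-rRNA_Hsa, the small-subunit rRNA, had 6717, 24746, 9639.7 and 8335 FPM in Dux KO pools 1 to 4, against 6419, 8480.2, 15844 and 14370.4 FPM in WT pools 1 to 4. Groups overlapped for both names, Dux KO pool 2 was the highest for both, and WT pools 3 and 4 lay above WT pools 1 and 2. The log2 fold change was -0.04 for LSU-rRNA_Hsa (95% interval -0.35 to 0.28, limma adjusted p = 0.909) and 0.03 for SSU-rRNA_Hsa (95% interval -0.90 to 0.95, limma adjusted p = 0.972). At this spread a change of SSU-rRNA_Hsa by less than 0.90 on the log2 scale in either direction lies inside the interval.

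Of 13 tested tRNA names, the 2 with the suffix (m) included, 12 had a log2 fold change below 0 in Dux KO over WT, and 0 passed the limma threshold. Their median log2 fold change was -0.48, and 7 had an unadjusted p under 0.05. All repeat names were not counted at that unadjusted threshold, so no excess can be read from the 7. With an adjusted p, edgeR called 2 of 8 tRNA names, beside 88 higher and 124 lower of 1097 repeat names. DESeq2 called 1 of 12, beside 114 higher and 133 lower of 1485 repeat names, some without an adjusted p. By the authors' deposited p-values 1 of 8 passed, beside 75 higher and 127 lower of 1554 repeat names, of which 415 had no p. The share of names below 0 changed with the settings. With equal totals 9 of 14 tested tRNA names were below 0 (median -0.16), beside 24.7% of all repeat names (median 0.27). With no filter on low values 28 of 48 were below 0 (median -0.08), beside 51.3% of all repeat names (median -0.01). Without Dux KO pool 2, 12 of 16 were below 0 (median -0.30), beside 52.3% of all repeat names (median -0.02). Without Dux KO pools 1 and 2 together, 11 of 15 were below 0 (median -0.25), beside 55.3% (median -0.05). The names share libraries and, in part, sequence, so that they are not independent of each other. tRNAs carry amino acids to the ribosome, and each name gives the amino acid and the codon that is read.

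The most abundant tRNA names were the 2 with the suffix (m). tRNA-Ser-TCA(m) had 2021, 2067, 2089 and 3133 FPM in Dux KO pools 1 to 4, against 2244, 2242, 2973 and 2703 FPM in WT pools 1 to 4, and its log2 fold change was -0.14 (95% interval -0.46 to 0.18, limma adjusted p = 0.598). tRNA-Leu-TTA(m) had 1448, 1279.6, 1482 and 1804 FPM in Dux KO pools 1 to 4, against 1806, 1865, 1728 and 1926 FPM in WT pools 1 to 4. Its groups overlapped through Dux KO pool 4. Its log2 fold change was -0.29 (95% interval -0.54 to -0.05, limma adjusted p = 0.114), and it was -0.39 with adjusted p = 0.0424 without Dux KO pool 4, within a range of 0.0424 to 0.93 over 20 alternatives.

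tRNA-Gln-CAA_, the next in level, had 615, 439, 847 and 1008 FPM in Dux KO pools 1 to 4, against 990.0, 859.5, 1163 and 992 FPM in WT pools 1 to 4. Dux KO pools 1 and 2 lay below every other pool, and Dux KO pool 4 lay above 3 of the WT pools. The log2 fold change was -0.52 (95% interval -0.96 to -0.08, limma adjusted p = 0.114). It was called without Dux KO pool 4 (-0.70, adjusted p = 0.0324) and without Dux KO pools 3 and 4 (-0.94, adjusted p = 0.00661), within a range of 0.00661 to 0.794 over 20 alternatives.

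Both names were set beside the mitochondrial tRNA gene with the fitting anticodon in the gene table. mt-Tl1, the mitochondrial leucine tRNA, held 1584, 1562, 1645 and 1647 reads in Dux KO pools 1 to 4, against 1590.0, 1854, 1457 and 1697 reads in WT pools 1 to 4. tRNA-Leu-TTA(m) held 2.51 to 2.94 times as many reads as mt-Tl1 in each of the 8 pools. mt-Tq, the mitochondrial glutamine tRNA, held 956, 768, 1315 and 1341 reads in Dux KO pools 1 to 4, against 1323, 1269, 1472 and 1448 reads in WT pools 1 to 4. tRNA-Gln-CAA_ held 1.75 to 2.02 times as many in each pool, and the order of pools was nearly shared, with Dux KO pools 1 and 2 lowest for both. The reads of name and gene can be the same reads, which was not tested.

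The mitochondrial tRNA genes are shown, with their anticodon in capitals, because the anticodons pair with the codons in the 2 names. mt-Tl1 lies at chrM:2676-2750 on the plus strand and mt-Tq at chrM:3772-3842 on the minus strand of GRCm38 (GENCODE M21):
mt-Tl1: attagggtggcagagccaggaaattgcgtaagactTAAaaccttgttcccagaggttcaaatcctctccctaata
mt-Tq: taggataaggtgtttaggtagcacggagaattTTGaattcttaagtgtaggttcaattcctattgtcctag
TAA pairs with the codon TTA and TTG with CAA.

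**Figure D4:**
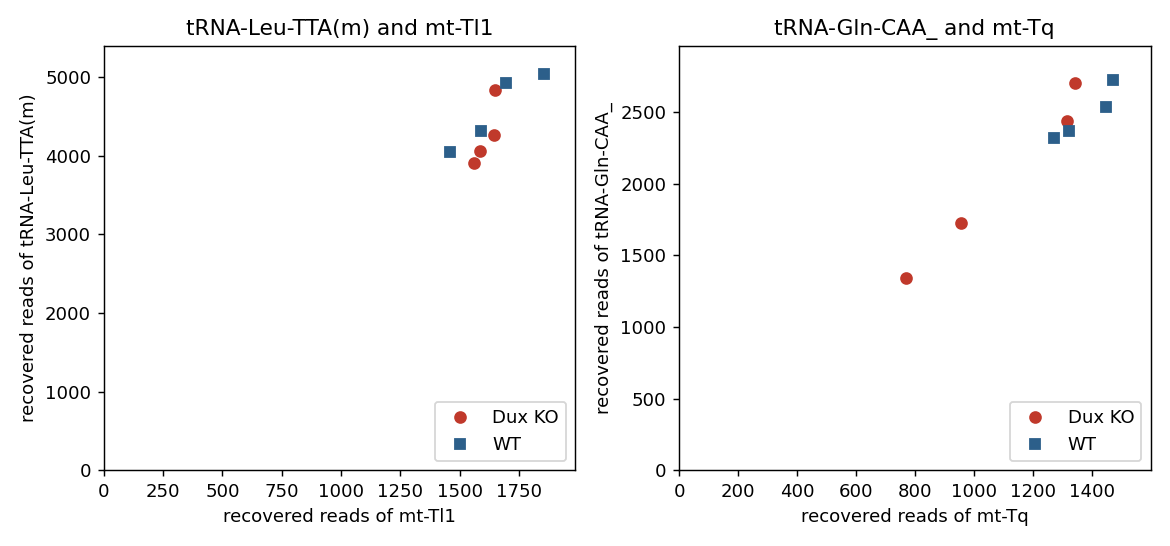
Recovered reads of tRNA-Leu-TTA(m) against the gene mt-Tl1 (left) and of tRNA-Gln-CAA_ against the gene mt-Tq (right), with 1 circle per Dux KO pool and 1 square per WT pool, on axes that start at 0. tRNA-Gln-CAA_ and mt-Tq are lowest in the same 2 Dux KO pools, at 1343 and 1724 reads of the name beside 768 and 956 reads of the gene.

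Alanine tRNA names came next. tRNA-Ala-GCY_ had 163, 112, 153 and 162 FPM in Dux KO pools 1 to 4, against 228, 193, 174 and 224 FPM in WT pools 1 to 4, without overlap. Its log2 fold change of -0.48 (95% interval -0.81 to -0.15) had a limma adjusted p of 0.0556, and it was past the threshold in 6 of 20 alternatives, edgeR (0.0446), DESeq2 (0.0244), the authors' deposited table (0.0238) and the fit without WT pool 3 (0.0399) among them, within a range of 0.0238 to 0.389. tRNA-Ala-GCA had 77.7, 50.4, 70.5 and 96.9 FPM in Dux KO pools 1 to 4, against 111, 76.7, 96.5 and 119 FPM in WT pools 1 to 4, and the groups overlapped (log2 fold change -0.46, 95% interval -0.90 to -0.03, limma adjusted p = 0.155, within a range of 0.0474 to 0.621 over 20 alternatives).

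Of the low tRNA names, 3 had groups that did not overlap without passing the threshold, and they are named after their values were seen. tRNA-Trp-TGG ran from 2.43 to 3.92 FPM in Dux KO pools and from 5.47 to 10.4 FPM in WT pools (log2 fold change -0.92, limma adjusted p = 0.058). It was called in 3 of 19 alternatives, within 0.0274 to 0.227: edgeR on recovered reads (0.0274), limma without trend and robust moderation (0.0366) and median-of-ratios scaling (0.0428). tRNA-Asp-GAY ran from 0 to 1.43 FPM in Dux KO pools and from 1.67 to 5.56 FPM in WT pools (log2 fold change -1.38, limma adjusted p = 0.0523), on 8 and 33 reads. It was called in 7 of 17 alternatives, within 0.0445 to 0.342. Among the 7 were equal totals (0.0445), median-of-ratios scaling (0.0489), and the fits without Dux KO pool 1 (0.0454) or WT pool 1 (0.0485). tRNA-Asn-AAC ran from 0.357 to 1.74 FPM in Dux KO pools and from 2.09 to 5.19 FPM in WT pools (log2 fold change -1.06, limma adjusted p = 0.0813), on 11 and 32 reads.

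Apart from tRNA-Gln-CAA_, tRNA-Ala-GCY_ and tRNA-Ala-GCA, the tRNA names without the suffix (m) had few reads. These 55 names stayed under a mean of 10 FPM and held 767 reads in all 8 pools: 97, 78, 83 and 82 reads in Dux KO pools 1 to 4, against 98, 139, 109 and 81 reads in WT pools 1 to 4. The groups overlapped through WT pool 4. Summed by amino acid over the names without the suffix (m) and all 8 pools, glutamine names had a mean of 864 FPM and alanine names 269 FPM, and each of the other 18 standard amino acids had 7.71 FPM or less. The glutamine level was almost wholly that of tRNA-Gln-CAA_, the name set beside mt-Tq above. RefSeq (GRCm38.p6) lists 33 alanine and 56 cysteine tRNA genes, and the cysteine name had 1.39 FPM. Over the 20 amino acids with RefSeq genes, gene number and level had a Spearman correlation of 0.328, so cysteine is 1 example and not the rule.

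The gene table held 17 genes of small or mitochondrial structural RNA under the symbols searched, 13 of them mitochondrial tRNA genes. Of those 13, 11 were below 0 and 1 was called, while 33.6% of all 12434 tested genes were called. The share of all tested genes below 0 was not counted, and their median log2 fold change was -0.02. Some of these genes can share reads with the tRNA names above, so the 11 are not separate from those names. mt-Tr, the mitochondrial arginine tRNA, fell, with 40.5, 46.8, 2.98 and 6.33 FPKM in Dux KO pools 1 to 4, against 110.1, 75.2, 122 and 102 FPKM in WT pools 1 to 4. The Dux KO pools lay below the WT pools and formed an upper pair, pools 1 and 2, and a lower pair of 3 and 6 reads, pools 3 and 4 (log2 fold change on log2(FPKM + 1) -2.71, 95% interval -4.23 to -1.19, limma adjusted p = 0.0153), and the call ended narrowly without WT pool 4 (adjusted p = 0.051). Vaultrc5, a vault RNA made by RNA polymerase III and found in the vault particle, rose, with 91.5, 132, 143 and 86.3 FPKM in Dux KO pools 1 to 4, against 62.0, 55.9, 42.4 and 53.1 FPKM in WT pools 1 to 4 (log2 fold change 1.05, 95% interval 0.62 to 1.48, limma adjusted p = 0.00458). The most abundant of the 17 were the mitochondrial rRNA genes mt-Rnr2 and mt-Rnr1 and the methionine tRNA gene mt-Tm, with adjusted p of 0.532, 0.363 and 0.109 by limma. Of these, mt-Tm was called lower without Dux KO pool 4 (log2 fold change -0.79, adjusted p = 0.0365).

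Among genes whose products make, bind or process these RNAs, more fell than rose in Dux KO. Of 159 symbols in 8 lists, 147 were tested, 62 fell (42.2%), 3 rose (2.04%) and 82 did not pass, beside 18.1% of all tested genes lower and 15.5% higher in Dux KO. The median log2 fold change on log2(FPKM + 1) was -0.44 over the 147 genes and -0.02 over all tested genes, and 131 of the 147 were below 0. How many of all tested genes were below 0 was not counted. The background depends on expression level: where the mean level reached 5 FPKM, 59 of 113 list genes fell (52.2%) and 2 rose, beside 29.1% of 6468 genes lower and 16% higher, and the median log2 fold change was -0.52 over the list genes and -0.18 over all. Without Dux KO pools 1 and 2 together, 13 of the 147 list genes were called lower and 1 higher. In that fit 447 of 12350 tested genes were called lower and 353 higher. Without 1 pool, the number lower was 33 without Dux KO pool 1, 41 without Dux KO pool 2, 38 without WT pool 3 and 34 without WT pool 4. Over all tested genes the number lower was 2249 in the reported fit, and 1426, 1602, 1783 and 1348 in the same order.

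RNA polymerase III and its factors held 28 tested genes, of which 16 fell and 1 rose (median -0.58). Beside them, 18.1% of all tested genes were lower, and 29.1% of those with a mean of at least 5 FPKM. Snapc5, a subunit of the complex that recognises snRNA promoters, averaged 116 ± 33.9 FPKM in Dux KO pools and 257 ± 11.2 FPKM in WT pools (SD, n = 4 each, log2 fold change -1.18, limma adjusted p = 0.00371). Polr1c, a subunit that RNA polymerases I and III share, averaged 109 ± 25.8 FPKM in Dux KO pools and 237 ± 32.3 FPKM in WT pools (SD, n = 4 each, log2 fold change -1.13, limma adjusted p = 0.00295). The 1 that rose was Maf1, the repressor of RNA polymerase III, at 18.4 to 25.3 FPKM in Dux KO pools and 7.46 to 21.2 FPKM in WT pools (log2 fold change 0.81, limma adjusted p = 0.0349), with groups that overlapped through WT pool 3. Its call ended without Dux KO pool 1 (adjusted p = 0.0929), 2 (0.0567) or 3 (0.0565) and without WT pool 1 (0.0819), 2 (0.0825) or 4 (0.0788). Polr3a, the largest subunit, averaged 11.2 FPKM in Dux KO pools and 15.2 FPKM in WT pools and did not pass (limma adjusted p = 0.105), although it did without Dux KO pool 4 (0.0397). Both Maf1 and Polr3a were named after their values were seen.

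The list for binding of Y RNA and other RNA polymerase III transcripts was drawn broadly, and such binding by Larp1 and Pnpt1 is not shown here. Of its 6 tested genes 2 fell, Larp1 and Zcchc17, and 1 rose, Pnpt1 (median -0.31). The 2 proteins best known for holding Y RNA did not pass: Ssb, which encodes La, averaged 157 FPKM in Dux KO pools and 167 FPKM in WT pools (limma adjusted p = 0.643), and Trove2, which encodes Ro60, averaged 1.71 FPKM in Dux KO pools and 1.19 FPKM in WT pools (limma adjusted p = 0.145). The call of Pnpt1 ended without Dux KO pool 1, 2 or 3 or WT pool 1, 2 or 3, with adjusted p of 0.0583 to 0.0936, and those of Larp1 and Zcchc17 without Dux KO pools 1 and 2 together (0.128 and 0.12). Pnpt1, Ssb and Trove2 were named after their values were seen. In the 7SK particle list 3 of 7 fell, among them Ccnt1 and Cdk9, the cyclin and kinase of P-TEFb, at log2 fold changes of -0.88 and -0.58 (limma adjusted p = 0.0101 and 0.0463). The call of Cdk9 ended without any 1 of Dux KO pools 1 to 4 and WT pools 3 and 4, with adjusted p of 0.0531 to 0.123, and that of Ccnt1 without Dux KO pools 1 and 2 together (0.0761). In the signal recognition particle list 2 of 9 fell, Srpr, a receptor subunit, and Srp19, at -0.69 and -0.56 (limma adjusted p = 0.0204 and 0.0275). The call of Srpr ended without WT pool 3 (adjusted p = 0.0514) or 4 (0.0579), and that of Srp19 without Dux KO pool 1 (0.0703) or 2 (0.0528) or WT pool 3 (0.0603) or 4 (0.0756). Over all tested genes 18.1% were lower in Dux KO, and 29.1% of those with a mean of at least 5 FPKM. No excess is read from the counts of these 3 small lists.

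Of 20 tested genes for U1, U2 and Sm proteins, 6 fell, beside 18.1% of all tested genes and 29.1% of those from 5 FPKM. The list median was -0.28, and 1 gene rose. The one that rose was Lsm3, a member of the ring that binds the U6 end, which averaged 47.2 ± 5.14 FPKM in Dux KO pools and 25.3 ± 2.25 FPKM in WT pools (SD, n = 4 each, log2 fold change 0.87, limma adjusted p = 0.00304). Snrpa1 and Snrpd1, which encode the U2-A' and Sm D1 proteins, fell, at -0.83 and -0.75 (limma adjusted p = 0.00797 and 0.00947), and the call of Snrpa1 ended without Dux KO pools 1 and 2 together (0.0558). In the list for snRNA 3′ processing and particle assembly 11 of 29 fell and 0 rose (median -0.43). Coil, which encodes coilin of the Cajal body, averaged 10.7 ± 2.10 FPKM in Dux KO pools and 26.8 ± 1.56 FPKM in WT pools (SD, n = 4 each, log2 fold change -1.26, limma adjusted p = 0.00202), and Snupn, which brings capped snRNA back into the nucleus, averaged 294 ± 67.8 FPKM in Dux KO pools and 638 ± 97.3 FPKM in WT pools (SD, n = 4 each, log2 fold change -1.13, limma adjusted p = 0.00393).

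For tRNA processing, export and modification 11 of 32 genes fell and 0 rose (median -0.36). Lower in Dux KO were 18.1% of all tested genes and 29.1% of those from 5 FPKM. Rpp40, a subunit of RNase P, which trims the 5′ end of tRNAs, averaged 30.9 ± 6.21 FPKM in Dux KO pools and 66.8 ± 2.35 FPKM in WT pools (SD, n = 4 each, log2 fold change -1.11, limma adjusted p = 0.00224). Trmt61a, of the enzyme that methylates adenosine in tRNA, fell to 4.31 FPKM in Dux KO pools, against 7.66 FPKM in WT pools (log2 fold change -0.74, limma adjusted p = 0.0456), and its call ended without Dux KO pool 1 (0.0663) or 2 (0.0938) or WT pool 2 (0.0653), 3 (0.113) or 4 (0.0794). For the 5S particle and RNA polymerase I 11 of 16 fell and 0 rose (median -0.58). Cd3eap and Polr1e, both subunits of RNA polymerase I, had log2 fold changes of -1.32 and -0.91 (limma adjusted p = 0.00311 and 0.00458), while Rpl5 and Rpl11, the ribosomal proteins that bind 5S rRNA, did not pass (limma adjusted p = 0.0539 and 0.111). Rpl5 was called lower without Dux KO pool 4 (0.0423) or WT pool 2 (0.0348), by DESeq2 (0.0343) and in the authors' deposited table (0.0419). Both were named after their values were seen.

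**Figure D5:**
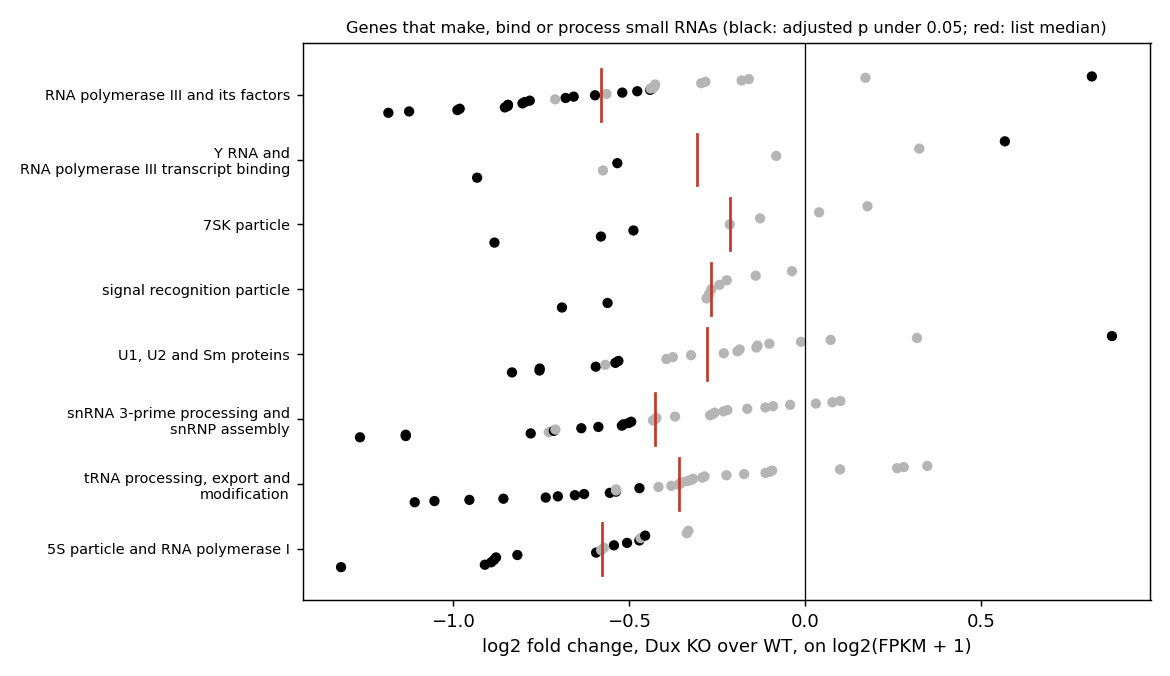
Log2 fold change, Dux KO over WT, on the log2(FPKM + 1) scale for each of the 147 tested genes in 8 lists (rows), in black where the adjusted p was under 0.05, with a red line at the median of each list. All 8 medians lie to the left of 0, between -0.58 and -0.21, and the 3 black points to the right of 0 are Maf1, Pnpt1 and Lsm3.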

How the data were processed

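RNA was measured in 8 pools of 2-cell embryos, with groups and replicate numbers from the labels. cDNA was made with a low-input kit and sequenced after Nextera XT, per the labels' protocols. Per the submitters' processing notes, the tools were Trimmomatic 0.32, STAR 2.6.1a and SAMtools 1.7, with the build GRCm38 (mm10). Not given in the sources used here are the counter, the repeat annotation, the strand setting, how reads with several positions were treated, and the test of the authors. The authors deposited repeat values as FPM, a signal equal to counts divided by size factors times a constant, and gene values as FPKM. The authors also deposited log2 fold changes and adjusted p-values. Steps in the values gave back whole reads, with 100% whole within 0.05. Of the numeric columns 0 had no sample or comparison.

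The members, gene lists and tests were chosen with earlier results of these data known. The rule named every member called, the 3 most abundant of each RNA class and all members outside tRNA; of each gene list at most 2 genes called in each direction without overlap; and of small RNA genes those called and the 3 most abundant. limma 3.58.1 (R 4.3.3, trend and robust moderation, all 8 pools, no covariate) was run on log2(FPM + 1) for the 1267 names that averaged 1 FPM or more and on log2(FPKM + 1) for the 12434 genes that averaged 0.5 FPKM or more, with Benjamini-Hochberg adjustment over all of them, two-sided. The log scale with a pseudocount of 1 understates the change of low names. The fit was tested on simulated data. Alternatives were 0.1 as pseudocount, all features with a value, filters at 10 FPM or 5 FPKM, scaling by median of ratios or to equal totals of FPM, the replicate block, plain limma with neither trend nor robust moderation, the deposited p-values, edgeR 4.0.16 and DESeq2 1.42.0 on recovered reads, and leaving out pools. The targeted gene itself was not analysed here, and some sequences are not reported here.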

Additional observations from a re-analysis of the deposited data

Results flagged for a closer look

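In 58 sets of 4 pools, 1 pool was checked for standing far from the other 3 (gap over range above Dixon's 95% critical value for 4 values), and 5 did; chance flags about 1 in 20. SSU-rRNA_Hsa in Dux KO pool 2 was high, at 24746 FPM, beside 6717, 8335 and 9639.7 FPM in the other Dux KO pools. tRNA-Ser-TCA(m) in Dux KO pool 4 was high, at 3133 FPM, beside 2021, 2067 and 2089 FPM in the other Dux KO pools, and with it the summed names with the suffix (m), at 4937 FPM beside 3347, 3469 and 3571 FPM. 5S in WT pool 4 was low, at 72.7 FPM, beside 98.7, 99.3 and 103 FPM in the other WT pools. U3 in WT pool 2 was low, at 13.0 FPM, beside 14.9, 15.1 and 15.2 FPM in the other WT pools.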

How the results depend on the processing

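Of the small RNA names, 2 were called higher and 2 lower. Higher calls numbered 1 with a pseudocount of 0.1, 1 with a mean of at least 10 FPM, 4 with equal totals, 1 without trend and robust moderation, 0 without Dux KO pools 1 and 2 together, 1 without Dux KO pools 3 and 4 together, and 0 to 2 without 1 pool. Over all repeat names 59 were called higher in the reported fit. In the same order of settings they were 56, 48, 310, 20, 4, 45 and 14 to 58. Lower calls numbered 1 with a mean of at least 10 FPM, 5 with median-of-ratios scaling, 1 without Dux KO pools 1 and 2, and 1 to 4 without 1 pool. Over all repeat names 96 were called lower in the reported fit, and 96, 99, 27 and 49 to 106 in the same order. Under the replicate block 6 names were called lower and 2 higher, with 4 of 13 tRNA names among the lower ones, tRNA-Ala-GCA (adjusted p = 0.0474) included, and of the pathway genes 75 were called lower and 3 higher. Over all features that block called 106 of 1267 repeat names lower and 80 higher, and 2591 of 12434 genes lower and 2141 higher. The labels do not say whether the numbers pair the pools. Deviations of same-numbered pools correlated at 0.024, 0.127, -0.040 and 0.101 over repeat names and at -0.115, 0.328, -0.055 and 0.302 over genes. Dux KO pools 2 and 4 were closest to the WT pool of their own number over repeat names and over genes, and Dux KO pools 1 and 3 were not. Of the pathway genes, 3 were called higher and 62 lower, against 1 to 3 and 33 to 61 without 1 pool, 1 and 13 without Dux KO pools 1 and 2, and 1 higher without Dux KO pools 3 and 4. Over all genes 1933 were called higher and 2249 lower, against 1179 to 1912 and 1348 to 2133 without 1 pool. Without Dux KO pools 1 and 2 they were 353 and 447, and without Dux KO pools 3 and 4, 1832 were higher. The cause was not tested.

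Signs that turned belong to names never called in the reported fit. With equal totals the log2 fold change was 0.28 for LSU-rRNA_Hsa and U3, 0.17 for tRNA-Ser-TCA(m), 0.017 for tRNA-Leu-TTA(m), 0.16 for 7SK, 0.18 for 7SLRNA, 0.027 for U7 and 0.060 for U4. Without 1 pool it ran from -0.166 to 0.084 for LSU-rRNA_Hsa, -0.37 to 0.25 for SSU-rRNA_Hsa, -0.013 to 0.14 for U6, -0.071 to 0.18 for U17, -0.062 to 0.0105 for U3, -0.46 to 0.15 for U4 and -0.29 to 0.14 for HY4. Without Dux KO pools 1 and 2 it was -0.24 for SSU-rRNA_Hsa and 0.021 for tRNA-Ser-TCA(m). Without Dux KO pools 3 and 4 it was -0.11 for U17, -0.10 for HY4 and 0.026 for U3. U3 was 0.015 with median-of-ratios scaling and 0.015 with DESeq2. Names under 10 FPM rest on few reads, and their values are limited by depth.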
